A study of Zea mays with 6 samples.

Results

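Counts of 3 maize MADS-box gene IDs were followed in young ears of ra3;tpp4 double mutants and of wild type (WT). The IDs are Zm00001d037737, named zag1, Zm00001d034045, named zmm4, and Zm00001d013259, named zmm15. They were chosen by ID and name, with earlier results of these data known, and make up 3 of the 46272 gene IDs counted. The names came with the choice: neither the count files nor the RefSeq gene table pairs any of the 3 IDs with a name, so the assignments were not checked here.

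MADS-box genes encode transcription factors that bind DNA in pairs and higher complexes and act in steps from the vegetative shoot to the flower. zag1 is AGAMOUS-like: genes of this class specify stamens and carpels and end the growth of the floral meristem, and in the maize ear zag1 is known for floral determinacy. zmm4 and zmm15 are FRUITFULL-like, a class that acts earlier, in the shoot's passage to flowering and in inflorescence meristems, and zmm4 is known to hasten flowering in maize when overexpressed. The 3 genes were brought together to set a gene of the floral phase beside genes of the earlier inflorescence phase.

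The ra3;tpp4 group, also called the mutant, held 3 libraries from plants mutant in both ra3 and tpp4, and the WT group 3 libraries from plants of the B73 inbred line. RAMOSA3, the product of ra3, removes the phosphate of trehalose-6-phosphate and keeps maize inflorescences from branching, and tpp4 encodes a related enzyme. All ears were 2 to 3 mm long, from field-grown plants, and the series design calls the replicates biological. The labels do not give the mutant alleles, the genetic background of the double mutant or the number of ears per library. Libraries held 19291332 to 25254164 counts over gene IDs in ra3;tpp4 and 25815984 to 26752609 in WT. Non-unique alignments made up 11.0% to 15.3% of all records, assigned or not, in ra3;tpp4 libraries and 19.3% to 22.2% in WT libraries. The share of records given to a gene also differed, at 75.3% to 77.7% in ra3;tpp4 and 65.5% to 68.9% in WT. The identity of the tissue was not checked by marker genes, since no marker could be matched to an ID.

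zag1 had no count in any library, so no level and no change can be given for it. Each of the 3 mutant libraries had 0 counts for Zm00001d037737, as did each of the 3 WT libraries. A count of 0 allows up to 3 counts, which is 0.125, 0.119 and 0.156 CPM (counts scaled to a library total of 1000000 over gene IDs) in mutant replicates 1, 2 and 3, and 0.116, 0.112 and 0.116 CPM in WT replicates 1, 2 and 3. These limits cover counting error only. Reads that align equally well elsewhere, or that overlap another gene, are left out of a gene's count, and their part in this 0 was not tested. Of the 44146 IDs with the same prefix, 14948 (33.86%) also had 0 counts in all 6 libraries. The ID named zag1 thus gave no count in either genotype, and only the inflorescence side of the comparison could be measured. A zag1 level of 3 counts would have been at most 0.0431% of the summed zmm4 and zmm15 counts in any mutant library and 0.0479% in any WT library.

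**Figure D1:**
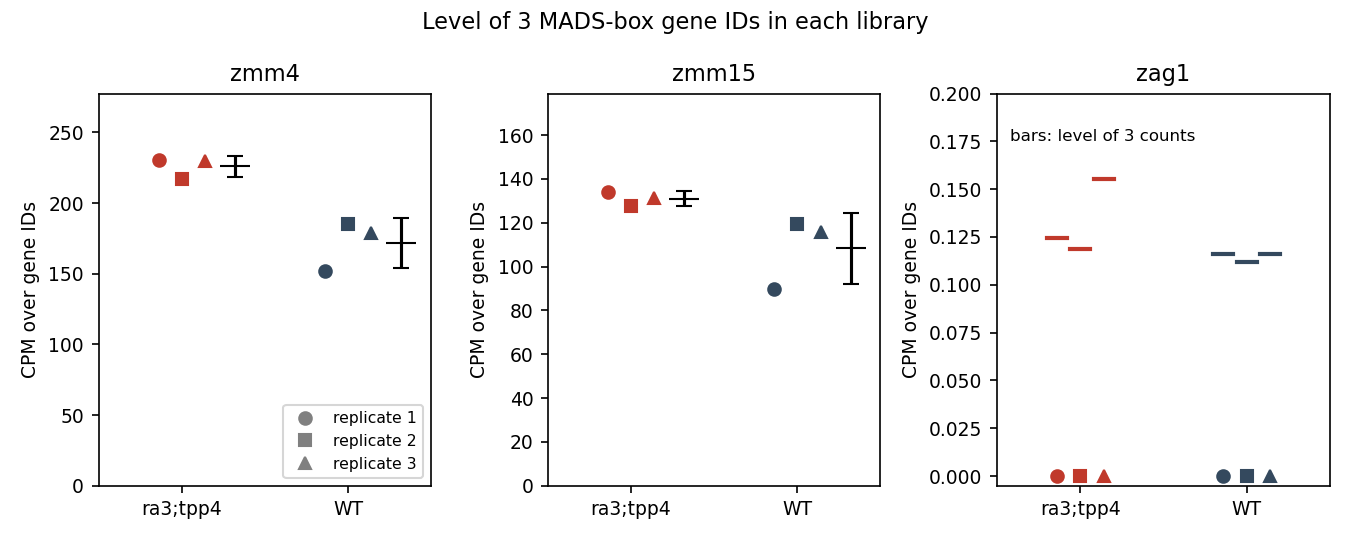
Level in CPM over gene IDs (linear axes) of zmm4, zmm15 and zag1 in each library of ra3;tpp4 and WT, with marker shapes for replicates and, for zmm4 and zmm15, the mean ± SD at the right of each group (n = 3 each). For zag1, points at 0 are the counts and bars the level that 3 counts would give. All mutant points lie above all WT points for zmm4 and zmm15, and WT replicate 1 is the lowest point of both.

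zmm4 was higher in ra3;tpp4 ears. It stood at 230.8, 217 and 229.8 CPM in mutant replicates 1, 2 and 3, against 152, 185 and 179 CPM in WT replicates 1, 2 and 3. The mutant libraries lay close together, WT replicate 1 lay below the other WT libraries, and the genotypes did not overlap. The gap between the lowest mutant and the highest WT library was 32.2 CPM. Mean levels were 226 ± 7.55 CPM in ra3;tpp4 and 172 ± 17.5 CPM in WT (SD, n = 3 each). The fitted change of zmm4 was 1.33-fold, with a log2 change of 0.42 (SE 0.0856, 95% interval 0.23 to 0.61) and a Benjamini-Hochberg adjusted p of 0.0417 by edgeR's quasi-likelihood test over all 21127 tested IDs. This put zmm4 at place 273 of 21127 by p. The exact permutation test on its CPM gave p = 0.1, two-sided, the smallest that 3 libraries against 3 can give.

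The call for zmm4 lay near the threshold. The edgeR adjusted p was 0.157 and 0.108 without mutant replicates 1 and 3, and 0.101, 0.0777 and 0.127 without WT replicates 1, 2 and 3, so the call was lost in each of these 5 fits, and it held without mutant replicate 2 at 0.0196. The log2 change stayed between 0.33 and 0.48 over these 6 fits. Over all 15 alternative settings the adjusted p of zmm4 ran from 0.00104 to 0.157.

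zmm15, the other FRUITFULL-like gene, had the same order of libraries but did not pass the test. It stood at 134, 128 and 131 CPM in mutant replicates 1, 2 and 3, against 89.9, 119 and 116 CPM in WT replicates 1, 2 and 3. The genotypes did not overlap here either, but the gap between the lowest mutant and the highest WT library was only 8.19 CPM, and WT replicate 1 again lay well below the rest. Mean levels were 131 ± 3.32 CPM in ra3;tpp4 and 108 ± 16.0 CPM in WT (SD, n = 3 each). The fitted log2 change of zmm15 was 0.30 (SE 0.106, 95% interval 0.06 to 0.54), with an edgeR adjusted p of 0.255 and an unadjusted p of 0.0199. The exact permutation test gave p = 0.1, two-sided, again the smallest possible. Without WT replicate 1 the log2 change of zmm15 was 0.17, with an edgeR adjusted p of 0.423.

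Set against all IDs tested, 1 of the 2 measurable genes was called higher in ra3;tpp4, where 0.918% of all tested IDs were called higher and 1.47% were called in either direction. Both had mutant libraries above all WT libraries, as did 8.55% of tested IDs, and both had an unadjusted edgeR p under 0.05 with a higher mutant level, as did 7.36%. The median log2 change was 0.36 over the 2 genes and -0.0022 over all tested IDs, whose quartiles were -0.12 and 0.12. A log2 change below that of zmm4 was found in 92.5% of tested IDs, and below that of zmm15 in 88.8%. Larger changes in either direction than that of zmm4 were shown by 14.2% of tested IDs, and than that of zmm15 by 21.7%. With 2 genes, chosen with earlier results of these data known, these shares describe the genes and say nothing of the class.

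**Figure D2:**
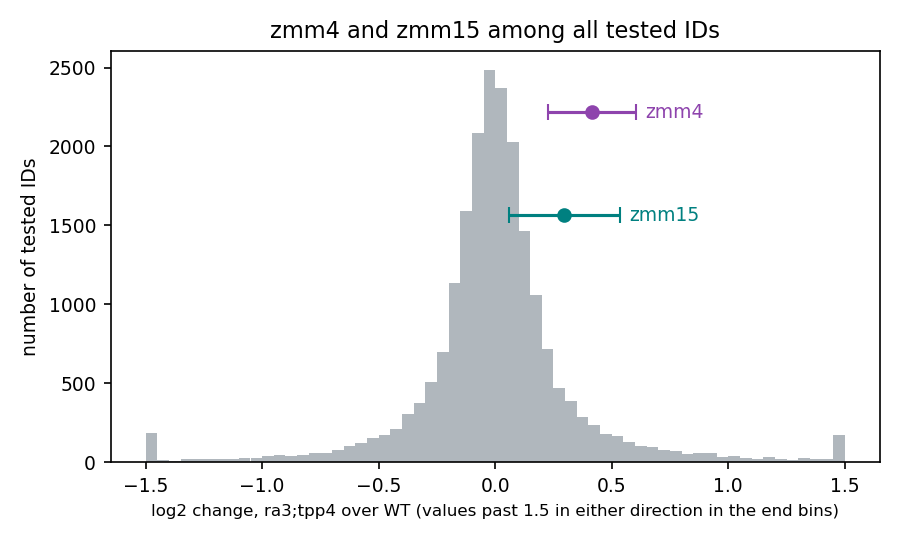
Number of tested IDs (vertical axis) by log2 change of ra3;tpp4 over WT (horizontal axis), with zmm4 and zmm15 as points with 95% intervals, placed at arbitrary heights. Both points lie right of the bulk of IDs, zmm4 at 0.42 and zmm15 at 0.30, and neither interval reaches 0.

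The spread between WT replicates of both genes rested on WT replicate 1. The coefficient of variation (SD over mean) was 3.34% in ra3;tpp4 and 10.2% in WT for zmm4. For zmm15 it was 2.54% in ra3;tpp4 and 14.8% in WT. The median over all tested IDs was 9.51% in ra3;tpp4 and 9.56% in WT. Counting error was 1.34% to 1.59% of each zmm4 value and 1.76% to 2.07% of each zmm15 value, smaller than the replicate spread of either genotype. Without WT replicate 1 the WT value was 2.48% for zmm4 and 2.24% for zmm15 (n = 2). WT replicate 1 lay farthest from the other WT libraries, so leaving it out had to lower the spread. These values therefore do not compare the spread of the genotypes. The mean mutant level of zmm4 was 1.31 times the mean WT level with WT replicate 1 and 1.24 times without it. For zmm15 these ratios were 1.21 and 1.12.

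zmm4 and zmm15 varied together from library to library. The 6 libraries had the same order in both genes, with mutant replicate 1 highest and WT replicate 1 lowest. Pearson's r between their CPM was 0.947 and Spearman's rho 1 over the 6 libraries. Pearson's r was 0.994 without mutant replicate 1 and WT replicate 1, the libraries farthest from the median of zmm4. These values are descriptions, since the points share genotype and library and the genotypes form separate clusters. Such likeness was also common: 562 of 18469 IDs whose mean log2 CPM reached 1 had an r of at least 0.9 with zmm4 on the log2 CPM scale, and zmm15 took place 179 among them with r = 0.955. In the order of likeness to zmm15, zmm4 took place 127.

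The ID most like the mean profile of zmm4 and zmm15 was Zm00001d038057, to which the sources used here give no name. Its r was 0.995 over the 6 libraries. It stood at 69.8, 68.2 and 70.5 CPM in mutant replicates 1, 2 and 3, against 58.1, 65.0 and 63.8 CPM in WT replicates 1, 2 and 3. Its log2 change of 0.18 did not pass the test (edgeR adjusted p = 0.323).

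**Figure D3:**
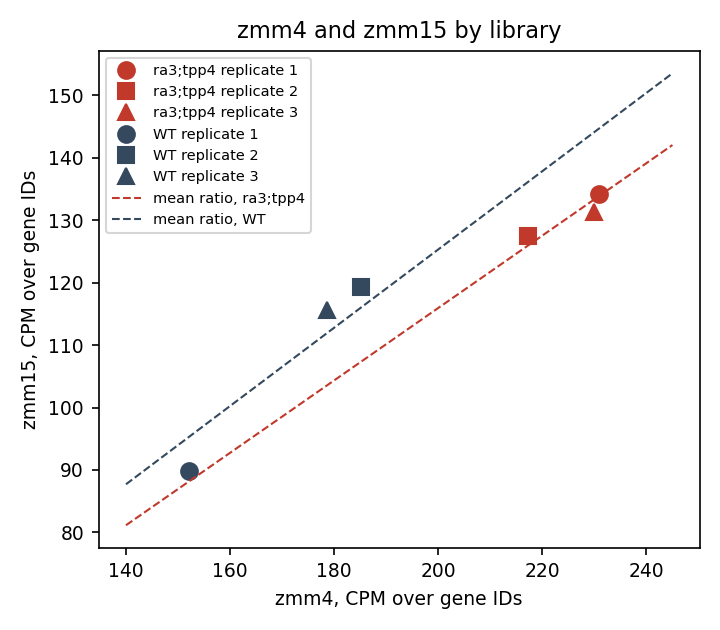
Level of zmm15 against zmm4, both in CPM over gene IDs, in each library of ra3;tpp4 and WT, with dashed lines at the mean ratio of each genotype (axes do not start at 0). WT replicate 1 lies at 152 and 89.9 CPM, and the 3 mutant libraries lie together at the upper right.

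The balance between the 2 FRUITFULL-like genes differed less between genotypes than the level of either gene. This restates their log2 changes, 0.42 for zmm4 and 0.30 for zmm15, and is no separate result. The ratio of zmm4 counts to zmm15 counts within a library, in which sequencing depth cancels, was 1.72, 1.70 and 1.75 in mutant replicates 1, 2 and 3, against 1.69, 1.55 and 1.55 in WT replicates 1, 2 and 3. Every mutant ratio was above every WT ratio, but that of WT replicate 1 (95% interval for counting error 1.61 to 1.78) lay within the counting error of the mutant ratios. Means were 1.73 ± 0.0235 in ra3;tpp4 and 1.60 ± 0.0825 in WT (SD, n = 3 each), a log2 difference of 0.11. The difference in response between zmm4 and zmm15 was not tested, so the call for zmm4 alone does not show that the 2 genes differ. The ratio does not compare their transcript levels, because gene lengths were not used.

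Summed, zmm4 and zmm15 stood at 365, 345 and 361 CPM in mutant replicates 1, 2 and 3, against 242, 304 and 294 CPM in WT replicates 1, 2 and 3. The mean sum was 357 ± 10.7 CPM in ra3;tpp4 and 280.2 ± 33.5 CPM in WT (SD, n = 3 each). In whole ears, more cells that express a gene and more RNA of it per cell cannot be told apart. The lower share of alignments that were not unique in ra3;tpp4 (13.1% ± 2.12, against 21.0% ± 1.51 in WT, SD, n = 3 each) moved with the higher zmm4 and zmm15 levels, and its part in them was not tested. This share did not overlap between genotypes, so its part cannot be told apart from that of genotype. Within WT the share was 21.4%, 19.3% and 22.2% in replicates 1, 2 and 3, and replicate 2, with the lowest share, had the highest zmm4 and zmm15 levels. Within ra3;tpp4 it was 15.3%, 12.9% and 11.0% in replicates 1, 2 and 3. There replicate 1, with the highest share, had the highest levels.

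**Figure D4:**
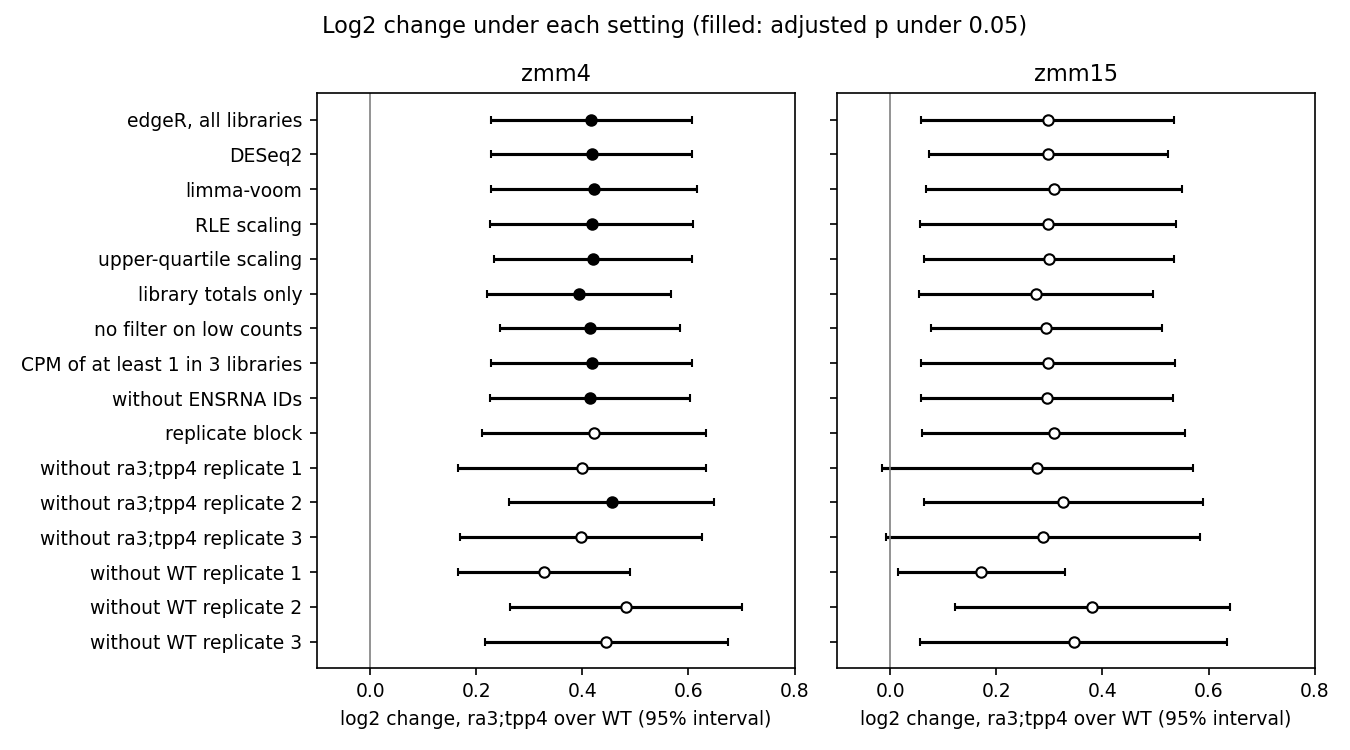
Log2 change of ra3;tpp4 over WT with its 95% interval for zmm4 and zmm15 under edgeR with all libraries and under each of 15 other settings, where filled points have an adjusted p under 0.05. All points lie above 0, with zmm4 running from 0.33 to 0.48 and zmm15 from 0.17 to 0.38. The zmm15 interval reaches below 0 without mutant replicate 1 and without mutant replicate 3.

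Other MADS-box genes, of the APETALA3-, SEPALLATA-, AGL6- and SVP-like classes among others, were listed by 34 symbols for comparison. The RefSeq table held 20 of these symbols but paired none of them with an ID of the count files, and those genes were not analysed here.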

How the data were processed

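Messenger RNA of developing ears was sequenced in 3 ra3;tpp4 and 3 WT libraries. The authors deposited raw counts per gene ID, 1 file per library. Per the submitters' processing notes the tools were Trimmomatic 0.36, HISAT2 2.1.0 and HTSeq, on B73 RefGen_v4. The annotation release and strand setting were not given in the sources used here. Counts of overlapping genes, antisense genes and near-identical copies are therefore uncertain. The 5 HTSeq lines for unassigned records stayed out of library sizes and tests.

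CPM is the count scaled to a library total of 1000000 over gene IDs. The test was edgeR 4.0.16 (robust quasi-likelihood, filterByExpr, TMM scaling; R 4.3.3) on genotype over all 6 libraries, adjusted over 21127 IDs and called at an adjusted p under 0.05; standard errors were the log2 change divided by the root of F. Alternatives were DESeq2 1.42.0, limma-voom (limma 3.58.1), other scalings and filters, no ENSRNA IDs, a replicate block and leaving out each library. Likeness used log2 CPM with a prior count of 2; besides the 3 genes, the rule for named IDs takes the ID most like zag1, which could not be found without counts, and the ID most like the mean profile of zmm4 and zmm15. Members and lists were chosen with earlier results of these data known. Positions, lengths and sequences were not used here.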

Additional observations from a re-analysis of the deposited data

How the results depend on the processing

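zmm4 and zmm15 had a positive log2 change in all 15 alternatives. zmm4 was called in 9 of them: DESeq2, limma-voom, every other scaling and filter, the fit without ENSRNA IDs and the fit without mutant replicate 2. zmm15 was called in 0 of 15 (adjusted p 0.149 to 0.517, log2 change 0.17 to 0.38), with an unadjusted p under 0.05 in 13. Leaving out each library in turn gave zmm4 a log2 change of 0.33 to 0.48. Sharing a replicate number did not make libraries alike: after removing the mean of each genotype, the correlations of libraries 1, 2 and 3 with their namesakes were -0.181, -0.123 and 0.154, and the own number gave the best match in 2 of 6 libraries. In a fit with a replicate block, zmm4 had a log2 change of 0.42 (edgeR adjusted p = 0.0742) and the call was lost, and 290 IDs were called over all, 221 of them shared with the 310 of the fit without the block. That count of 310 was 846 in DESeq2, 511 with no filter on low counts and 58 to 471 when each library in turn was left out. The cause was not tested. The planned ratio of zag1 to the sum of zmm4 and zmm15 gave no value with 0 zag1 counts, and adding 1 count was not run, since that would measure the other genes alone. The ratio of zmm4 to zmm15, an alternative chosen after seeing the data, kept a log2 difference of 0.09 to 0.16 without any 1 library. A count of 0 leaves room for a zag1 level of up to 3 counts in a library, and whether depth is the reason for its 0 was not tested.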

Other observations

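The IDs with the nearest numbers were looked at after the values of the 3 genes had been seen. Nothing in the files tells whether IDs close in number are close in the genome. All 5 IDs numbered just above zag1 also had 0 counts in all 6 libraries. The same held for 2 of the 10 IDs nearest to zmm4 and 1 of the 10 nearest to zmm15. It held for 33.86% of all IDs with the same prefix, but that is a share of single IDs. How often such runs occur was not counted. Of the 5 numbered just below zag1, 4 had enough counts to be tested. 0 of those 4 were called by edgeR (0 of 4 at an unadjusted p under 0.05 as well). Of the 10 IDs nearest to zmm4 in number, 7 were tested and 0 called by edgeR, with 2 lower in ra3;tpp4 at an unadjusted p under 0.05. The share of all tested IDs that were lower at that p was not counted.

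Of the 10 nearest to zmm15, 6 were tested and 1 was called, against 1.47% of all tested IDs. An unadjusted edgeR p under 0.05 was found in 3 of the 6, with 0 of these 3 lower in ra3;tpp4. Of all tested IDs, 7.36% were higher in ra3;tpp4 at that p. The called ID was Zm00001d013254, which rose to 55.7 ± 3.82 CPM in ra3;tpp4, against 36.8 ± 2.05 CPM in WT (SD, n = 3 each). Its log2 change was 0.62 (edgeR adjusted p = 0.00758). The ID numbered just below zmm15 had a log2 change of 0.41 and was not called (edgeR adjusted p = 0.320), with 72.9 ± 4.03 CPM in ra3;tpp4 and 55.7 ± 12.3 CPM in WT (SD, n = 3 each).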
